A study of Rattus norvegicus with 12 samples.

Results

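The 10 genes described here encode precursors of neuropeptides: Gal, Npy, Pnoc, Tac1, Pdyn, Penk, Nts, Adcyap1, Cartpt and Cck. They were measured in PC12 cells, a line derived from a rat adrenal pheochromocytoma, a tumour of chromaffin cells, treated with 1e-07 M PACAP38 and in control cells, at 6 time points that ran from 5 min through 10, 15, 30 and 60 min to 120 min. All probes that carry one of these gene names on the Agilent whole rat genome array were taken, which gave 16 of 41012 probes and 70 spots per array. For each time point, RNA of PACAP38-treated cells (n = 6) and of control cells was pooled, and both pools were hybridized together on 2 arrays, once with PACAP38 in Cy5 and once in Cy3. The 12 arrays therefore hold 1 replicate per time point, so PACAP38 was not tested against control within a time point, and the values of both arrays, which share their pools, show technical spread only.

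Neuropeptides are made as long precursor proteins that are cut by prohormone convertases and trimmed, and in many cases amidated, inside secretory granules, from which they are released on stimulation. Chromaffin cells and the sympathetic neurons related to them store such peptides beside catecholamines. PACAP38 acts on its receptor PAC1, the product of Adcyap1r1, which raises cAMP and calcium, and several precursor genes are known to respond to cAMP through the cAMP response element, a short DNA sequence bound by CREB.

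A fold is PACAP38 over control from the processed intensities, given per array or as the geometric mean of both arrays, and a level is the log2 of the processed intensity of 1 RNA after scaling between arrays. The level of a pool is the mean of its 2 arrays. To be counted as higher, a gene had to reach 2-fold on each array, with a spot p-value from the scanner software's own error model below 0.01 on each; to be counted as lower, it had to fall to 0.5-fold or less by the same rule. Of several probes of a gene the brightest gives the gene's value. An RNA that lacked the software's flag for well above background on both arrays is called dim. If one RNA was dim, a lower bound on the mean fold of both arrays is given, written as "at least". If both were, no fold is given. The bound rests on the lowest signal flagged on each array, so it is no strict minimum, and a single array can lie below it.

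RefSeq's promoter table of the rat build GRCr8 held 7 of the 10 genes: Gal, Npy, Tac1, Pdyn, Nts, Adcyap1 and Cartpt. The 250 bases before the listed start are shown for those with a match to one of the motifs searched, on both strands, in windows that also hold the first 50 bases of the gene. The motifs were the full cAMP response element TGACGTCA, its core TGACG, the AP-1 motif TGANTCA, the NR4A motif AAAGGTCA and the EGR motif GCGNGGGCG. Capitals mark the matches, read 5′ to 3′ on the strand of the gene, so that CGTCA is the core read from the other strand.
Gal (chr1:210084573-210084822, minus strand): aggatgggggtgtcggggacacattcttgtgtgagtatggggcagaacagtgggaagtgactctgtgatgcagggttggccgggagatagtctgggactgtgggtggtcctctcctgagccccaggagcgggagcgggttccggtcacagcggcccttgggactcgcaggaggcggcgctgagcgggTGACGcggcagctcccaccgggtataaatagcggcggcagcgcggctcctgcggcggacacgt
Tac1 (chr4:36645333-36645582, plus strand): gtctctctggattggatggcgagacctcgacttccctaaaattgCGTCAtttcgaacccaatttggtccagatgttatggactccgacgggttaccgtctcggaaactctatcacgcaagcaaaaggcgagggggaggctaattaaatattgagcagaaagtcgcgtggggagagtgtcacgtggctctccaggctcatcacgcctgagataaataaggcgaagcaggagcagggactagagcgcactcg
Nts (chr7:39460889-39461138, minus strand): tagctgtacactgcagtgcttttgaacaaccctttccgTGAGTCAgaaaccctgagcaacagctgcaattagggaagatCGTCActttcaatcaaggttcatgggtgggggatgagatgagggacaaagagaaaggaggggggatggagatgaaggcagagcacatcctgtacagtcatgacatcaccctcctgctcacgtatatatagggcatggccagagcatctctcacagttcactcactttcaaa
Cartpt (chr2:32991236-32991485, minus strand): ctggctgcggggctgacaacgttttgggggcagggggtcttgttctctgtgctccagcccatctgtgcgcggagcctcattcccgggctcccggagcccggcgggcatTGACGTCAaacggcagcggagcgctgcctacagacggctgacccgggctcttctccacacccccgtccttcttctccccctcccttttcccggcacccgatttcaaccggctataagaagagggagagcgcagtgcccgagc
The core motif began 63 bases before the start in Gal, 206 before it in Tac1 and 171 before it in Nts, and Nts also held an AP-1 match at 212 bases before it. Cartpt alone held the full element, which contains the core on both strands, 142 bases before its start. Among all 33469 promoters of the table, 1.83% held the full element, 21.2% the core, 7.33% the AP-1 motif, 1.43% the NR4A motif and 4.98% the EGR motif. No match was found in the windows of Npy, Pdyn and Adcyap1, and none of the 7 windows held the NR4A or EGR motif. Bases further upstream of the listed starts were not searched, so a missing match holds for these windows alone.

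At 120 min 7 of the 10 genes were counted as higher with PACAP38: Pdyn, Nts, Pnoc, Tac1, Npy, Adcyap1 and Gal. Their folds lay between 4.57 for Gal and 40.4 for Pdyn, with a median of 18.3, before any bound was set for a dim control. Over all probes, 1.95% were counted as higher at 120 min, and 4.24% of those with at least 1 RNA well above background on both arrays. Pnoc and Tac1 were counted at 60 min, against 0.871% of all probes and 1.79% of the measured ones. From 5 to 30 min 0 of the 10 genes were counted, while the share of all probes counted as higher went from 0% (5 min) through 0.0659% (10 min) and 0.0902% (15 min) to 0.249% (30 min). At no time point was a gene of the 10 counted as lower, while the share of all probes counted as lower was 0% for the first pair of times, then 0.0268% (15 min), 0.102% (30 min), 0.376% (60 min) and 1.53% (120 min). A summary figure of the study names Gal, Npy, Pnoc, Tac1 and Pdyn as neuropeptide genes raised at 120 min in these samples, so their direction is not independent evidence.
The median log2 fold of all 10 genes, dim ones included, lay between -0.16 and 0.083 from 5 to 30 min, was 0.42 at 60 min and 2.92 at 120 min, or 2.83 with dim controls at their bound. The median of all probes was 0.020 at 120 min.

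**Figure D1:**
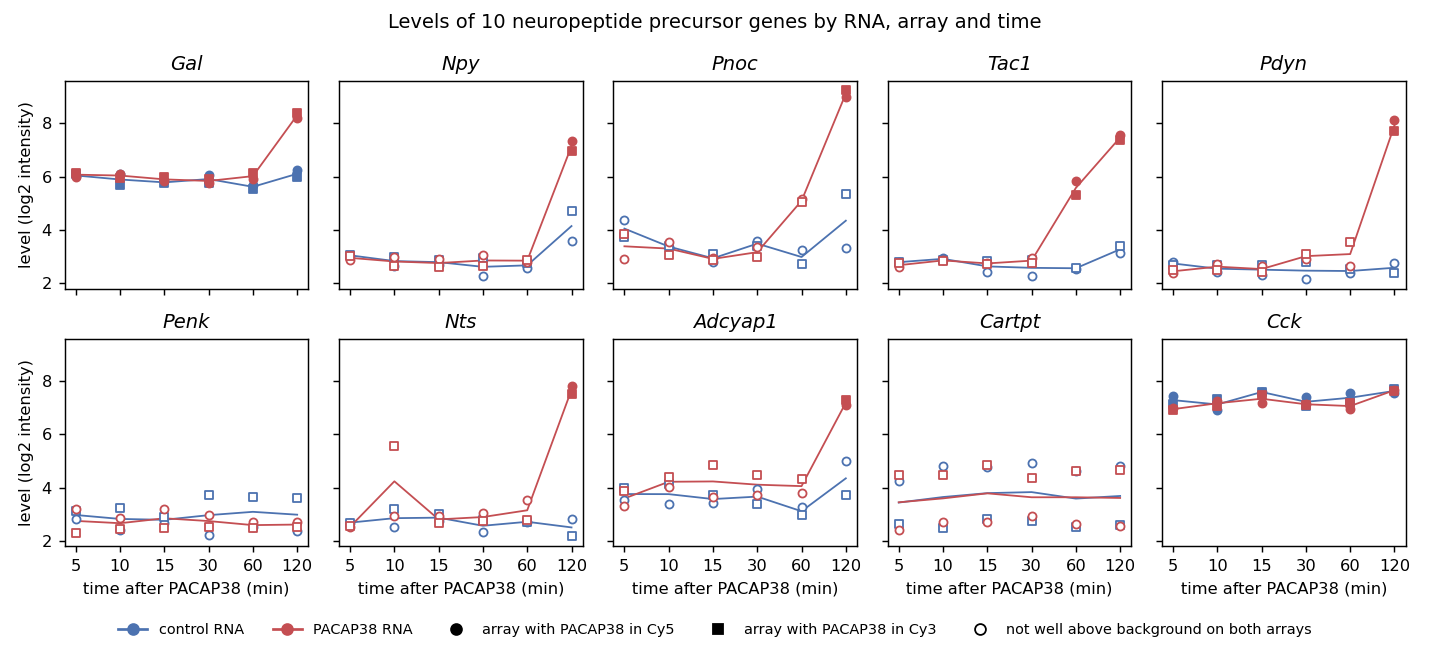
Level of each gene (log2 intensity, brightest probe) in control RNA (blue) and PACAP38 RNA (red) at the 6 time points, with circles for the array with PACAP38 in Cy5, squares for the array with PACAP38 in Cy3 and a line through their mean. Filled symbols mark an RNA that was well above background on both arrays. In 7 genes the PACAP38 RNA separates from the control at 120 min, in Pnoc and Tac1 already at 60 min, and Gal and Cck are the genes filled throughout.

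Most of these signals lay close to background. At the 60 and 120 min time points the control RNA was well above background on both arrays only for Gal and Cck. On the array with PACAP38 in Cy5 at 120 min, the mean scanner signal of Pdyn was 80.6 in the PACAP38 RNA and 38.8 in the control RNA, with local backgrounds of 19.0 and 18.0, and on the exchanged array it was 86.8 and 26.2, with local backgrounds of 17.0 and 22.0. The software's subtraction, detrending and dye normalization turned these into folds of 41.1 and 39.6. The normexp correction, which subtracts the local background and adds an offset of 50, gave 2.02-fold with loess. Adding the same offset to both dyes draws a fold toward 1, the more so where signals are as low as these. How much of the smaller folds this makes up was not tested. Under it all 7 genes stayed above 1 on both arrays at 120 min, with folds from 1.34 to 2.47, but 2 (Pnoc and Pdyn) instead of 7 passed the limits, and with median centring 1 (Pnoc) did. At 60 min Pnoc and Tac1 were 1.1- and 1.2-fold under normexp and loess, and neither was counted. The direction of the 7 genes was thus the same in these scalings, whereas the sizes were not.

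**Figure D2:**
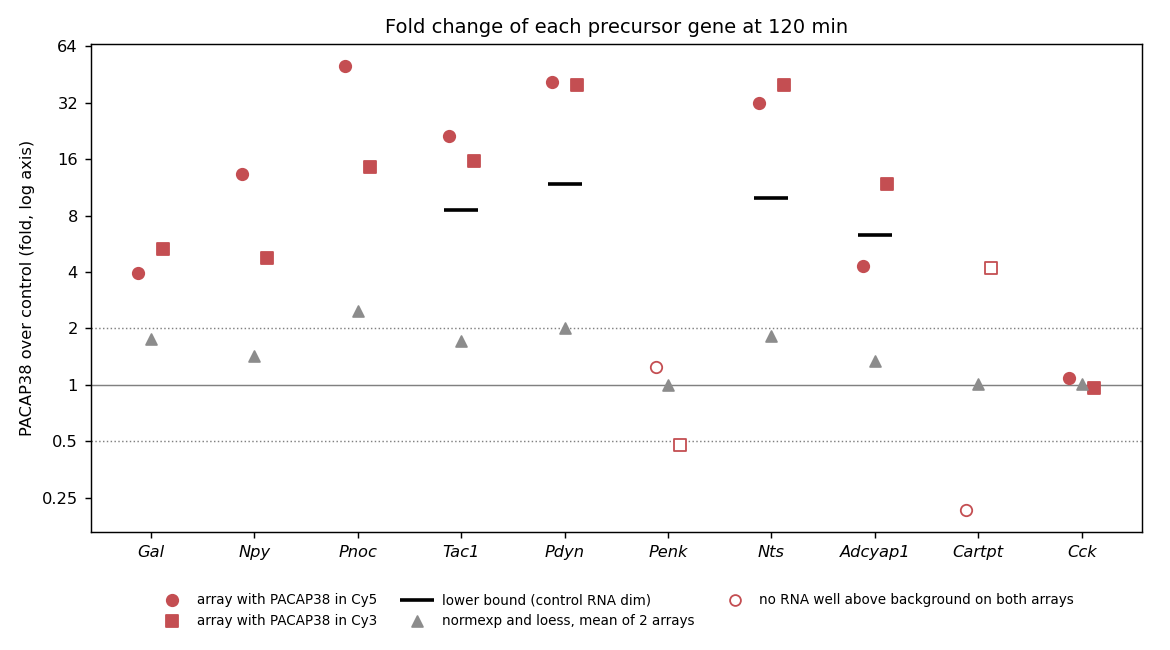
Fold of PACAP38 over control at 120 min for each gene on a log axis, on the array with PACAP38 in Cy5 (circles) and in Cy3 (squares), with the lower bound where the control RNA was dim (bars) and the mean of both arrays under normexp and loess (triangles). Dotted lines are the 2-fold and 0.5-fold limits. The symbols of 7 genes lie above 2 on both arrays, and their triangles lie between 1.34 and 2.47.

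In the opioid family, Pdyn, the precursor of the dynorphins, and Pnoc, the precursor of nociceptin, were counted at 120 min, while Penk, the precursor of the enkephalins, was dim in both RNAs. Pdyn is measured by 1 probe on 1 spot (NM_019374, rn4 chromosome 3, 117291061 to 117291120). Its level in the 6 control pools was 2.46 at the lowest, 2.53 at the median and 2.75 at the highest, and none of them was well above background. In the PACAP38 RNA it lay between 2.45 and 3.02 from 5 to 30 min, was 2.65 and 3.54 on both arrays at 60 min and reached 8.14 and 7.70 at 120 min. Only the PACAP38 pool of 120 min stood clear of the other 11 pools. PACAP38 was at least 11.8-fold higher than the control there.
Pnoc (NM_013007, rn4 chromosome 15, 44822650 to 44822709) is also measured on 1 spot. Its level in the control pools ranged from 2.94 through a median of 3.43 to 4.35. The PACAP38 level was between 2.92 and 3.39 from 5 to 30 min, 5.15 and 5.03 at 60 min, then 8.99 and 9.23 at 120 min. As means of 2 arrays, both late PACAP38 pools were above every control pool, but the control of 120 min was at 5.36 on the array where it was labelled with Cy5, above both 60 min values, and at 3.34 on the other. The arrays gave 3.74-fold (PACAP38 in Cy5) and 4.95-fold (PACAP38 in Cy3) at 60 min. The PACAP38 RNA was well above background on only the first of these arrays and the control on neither. The bound of at least 1.94-fold includes the PACAP38 value of the second array, so it is uncertain. At 120 min the folds were 50.2 and 14.6, and the control was well above background only on the array that gave 14.6.
Penk has 2 probes (NM_017139, rn4 chromosome 5, 17514076 to 17514135 and 17509637 to 17509696), and both RNAs stayed dim on each of them in all arrays. The level of the brighter one lay between 2.80 and 3.1 in control and between 2.60 and 2.85 in PACAP38 pools, and no fold is given.

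Tac1, the precursor of substance P and neurokinin A, was counted from 60 min on, and Nts, the precursor of neurotensin, at 120 min. Tac1 (NM_012666, rn4 chromosome 4, 32657311 to 32657369) is printed on 10 spots. In control pools its level was 2.57 at the lowest, 2.71 at the median and 3.28 at the highest, and it was never well above background. The PACAP38 level was between 2.68 and 2.86 from 5 to 30 min, 5.85 and 5.31 at 60 min, then 7.56 and 7.37 at 120 min. The values at 60 and 120 min did not overlap with each other or with any earlier pool. The folds were 9.87 and 6.58 at the first of these times and 21.4 and 15.6 at the second, with bounds of at least 2.71-fold and at least 8.61-fold. At 60 min single spots gave 5.79- to 12-fold on the array with PACAP38 in Cy5 (9 spots) and 2.22- to 10.8-fold on the other (10 spots). At 120 min they gave 15.2- to 33.7-fold (9 spots) and 13.4- to 17.7-fold (8 spots), not counting spots the software marked as outliers.
Nts has 2 probes of 1 spot each (NM_001102381, rn4 chromosome 7). On the brighter one (40474799 to 40474858) the level in control pools lay between 2.51 and 2.88, with a median of 2.71. In PACAP38 RNA it was 7.82 and 7.52 at 120 min, and 3.53 and 2.78 at 60 min. The bound at 120 min was at least 9.91-fold (32.0 and 39.7 without it). At 10 min the array with PACAP38 in Cy3 gave 5.15-fold and that with PACAP38 in Cy5 1.32-fold, each from 1 spot. The PACAP38 RNA was well above background on 1 of these arrays, the bound did not exceed 1, and Nts was not counted. The second probe (40474898 to 40474957) gave at least 5.60-fold at 120 min (8.04 and 16.8).

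Gal, the precursor of galanin, is the one gene of the 7 whose control RNA was well above background on all 12 arrays, so its fold is no bound. The Gal probe (NM_033237, rn4 chromosome 1, 205936430 to 205936489) is printed on 10 spots. Control levels were 5.62 at the lowest, 5.90 at the median and 6.10 at the highest. PACAP38 levels lay between 5.84 and 6.07 from 5 to 30 min, within the range of the controls, and were 5.91 and 6.13 at 60 min. At 120 min they were 8.21 and 8.39, above all other pools. The fold was 1.16 and 1.5 at 60 min, short of the limit. It was 3.94 and 5.31 at 120 min, with a mean log2 fold of 2.19 ± 0.30 (SD of 2 arrays of the same pools). Single spots gave 3.21- to 4.74-fold on the first array (10 spots) and 4.80- to 6.20-fold on the second (9 spots). Under normexp and loess Gal was 1.77-fold higher and not counted.
Npy, the precursor of neuropeptide Y, which sympathetic neurons release with noradrenaline, was not counted up to 60 min, when both RNAs were dim (NM_012614, rn4 chromosome 4, 78045125 to 78045184, 10 spots). Its control level was 2.81 at the median of the 6 pools and 4.15 at 120 min, when the control was well above background on 1 of 2 arrays, with 4.69 there and 3.60 on the other. In the PACAP38 RNA of 120 min the level was 7.34 and 6.95. The fold was 13.3 on the array where the control was dim and 4.77 on the array where it was not. Spots of both arrays did not overlap either, with 7.93- to 28.0-fold on the first (10 spots) and 3.61- to 5.68-fold on the second (9 spots).

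Adcyap1 encodes PACAP itself, the peptide that was added to the cells. Its 4 probes were all counted as higher at 120 min and at no other time. On the brightest (NM_016989, a spliced match on rn4 chromosome 9_random, 1057315 to 1057800) the level in control pools was 3.12 at the lowest, 3.71 at the median and 4.35 at the highest. The PACAP38 level was between 3.60 and 4.24 from 5 to 30 min and 3.80 and 4.32 at 60 min. It reached 7.09 and 7.28 at 120 min, while the control was dim throughout. The bound for PACAP38 over control was at least 6.30-fold at 120 min for the mean of both arrays. Without it the arrays gave 4.31 and 11.8, the first below the bound. The other 3 probes gave at least 2.59-, 2.74- and 2.75-fold, the last on 10 spots (10.5 and 9.42 before the bound). The direction was the same on all 4 probes.

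Cck, the precursor of cholecystokinin, was not counted at any time. On its main probe (NM_012829, rn4 chromosome 8, 126492829 to 126492888, 10 spots) both RNAs were well above background on all arrays. Control levels lay between 7.12 and 7.63 and PACAP38 levels between 6.94 and 7.66. The fold per array was between 0.660 and 1.26 over the 12 arrays, and at 120 min 1.08 and 0.958. A second probe (XM_017595477) was dim in both RNAs.
Cartpt, the precursor of the CART peptides, gave ratios that followed the dye. With PACAP38 in Cy5 the ratio was between 0.215 and 0.281 at all 6 time points, and with PACAP38 in Cy3 between 3.04 and 4.26 (NM_017110, rn4 chromosome 2, 30889869 to 30889928, 10 spots). The mean of both arrays was between 0.874 and 1.03. Whichever RNA was in Cy3 had the higher level, 4.80 for control and 4.65 for PACAP38 at 120 min, against 2.59 and 2.58 in Cy5. PACAP38 was well above background on no array and the control on 3, so no fold is given, and taking only the arrays with PACAP38 in Cy5 would have counted Cartpt as lower at 10 and 120 min.

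**Figure D3:**
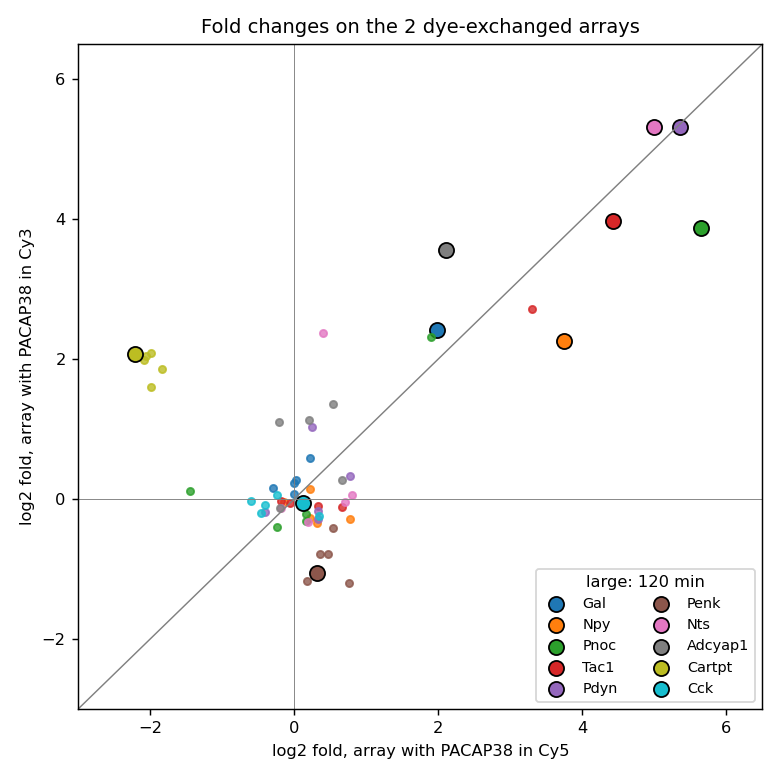
Log2 fold of each gene on the array with PACAP38 in Cy5 (horizontal) against the array with PACAP38 in Cy3 (vertical) at the 6 time points, with large symbols at 120 min. The line marks equal values. Cartpt lies at the upper left at every time point, while the large symbols of the 7 counted genes lie near or to either side of the line at upper right.

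A slope of the log2 fold on log2 time was fitted over the 6 time points with limma, across 20202 probes with 1 or both RNAs well above background on each array of some time point. Penk and Cartpt did not enter it. Of the 8 genes that did, Npy, Pnoc, Tac1, Pdyn, Nts and Adcyap1 entered only through their PACAP38 RNA at 120 min or, for Tac1, at 60 and 120 min. A late rise was thus the condition for their entry, and their slopes are given as a description, with no test. Per doubling of time the log2 fold of these 6 genes changed by 0.52 for Adcyap1, 0.53 for Npy, 0.80 for Nts, 0.99 for Pdyn, 1.00 for Tac1 and 1.08 for Pnoc, with the early ratios taken between 2 dim RNAs. Gal and Cck, measured throughout, had slopes of 0.37 (SE 0.14, limma adjusted p = 0.15) and 0.032 (SE 0.045, adjusted p = 0.67). Neither passed an adjusted p of 0.05, where 0.525% of the 20202 fitted probes passed as rising and 0.203% as falling. Gal had an unadjusted p below 0.05, as did 28.7% of the fitted probes. On a scale of minutes instead of log2 time Gal passed (limma adjusted p = 0.0098) and Cck did not (adjusted p = 0.57). There 10.2% of the fitted probes passed as rising.
The time points of 60 and 120 min lay on a slide of their own, as did 5 and 10 min and 15 and 30 min. With slide as a block the slopes of Gal and Cck were 0.58 and 0.29, both with an adjusted p of 0.89 in limma. Within the slide of 60 and 120 min the fold of each of the 7 genes was larger at 120 min. As the 7 genes were counted for their fold at 120 min, this order is a description only.
The same fit was made for each RNA separately and is read for Gal and Cck alone, since the controls of the other 6 genes were well above background on both arrays at 0 time points. The control level changed by -0.0090 per doubling of time in Gal (SE 0.047, limma adjusted p = 0.93) and by 0.064 in Cck (SE 0.046, adjusted p = 0.48). Of the fitted probes, 0% passed in either direction and 17.1% had an unadjusted p below 0.05. The PACAP38 level changed by 0.36 in Gal (SE 0.17, limma adjusted p = 0.19) and by 0.096 in Cck (SE 0.053, adjusted p = 0.25). Here 2.37% of the fitted probes passed as rising, 2.11% as falling and 32.8% had an unadjusted p below 0.05. In minutes the PACAP38 level of Gal passed (limma adjusted p = 0.023), against 9.18% of the fitted probes rising, and with slide as a block it did not (adjusted p = 0.72).

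Of 47 other neuropeptide precursor genes on the array, 5 were counted as higher at 120 min by their brightest probe and 0 as lower at any time, against 1.95% of all probes. They were Calcb, the precursor of beta-CGRP, Vip, the precursor of vasoactive intestinal peptide and of the same family as PACAP, Apln (apelin), Uts2 (urotensin 2) and Ucn2 (urocortin 2). Calcb was 56.4- and 17.4-fold and Vip 27.9- and 10.0-fold higher on the arrays with PACAP38 in Cy5 and Cy3, each with a control well above background on 1 array. Bounds were at least 5.02-fold for Ucn2, at least 3.80-fold for Uts2 and at least 3.66-fold for Apln, whose second probe was also counted. None of the 5 was counted at 60 min, when Vip gave 5.64- and 4.24-fold and Calcb 7.11- and 3.74-fold with a spot p-value above the limit on 1 array each and bounds of at least 1.54- and at least 1.66-fold. Calca, the precursor of alpha-CGRP, had probes that disagreed, with 1.19 and 0.844 on its brightest and 13.6 and 12 on another, counted, probe (at least 3.20-fold). In 26 of the 47 neither RNA was well above background on both arrays of any time point, and the median log2 fold of the 47 genes at 120 min was 0.13.
Of 21 genes for receptors of these peptides, 0 were counted at any time, and 18 were not well above background on both arrays in any comparison. Adcyap1r1, the receptor for PACAP, was well above background throughout, with 0.909- and 1.12-fold at 120 min, as were Galr2, a galanin receptor (0.863 and 0.740), and Sort1, which binds neurotensin (1.17 and 1.12). The median of the list was 0.038.
Of 8 genes that process precursors, 0 were counted and 5 were measured throughout. The convertases Pcsk1 and Pcsk2 were not among the measured ones, as both RNAs were dim at all 6 time points. Pam, the amidating enzyme, was at 2.05- and 1.96-fold at 120 min, short of the limit on 1 array. Cpe, a carboxypeptidase, gave 1.23 and 1.35, and Furin, a convertase, 1.27 and 0.796. The median of the list was 0.32.
The cell line carried the markers of chromaffin cells: 10 of 11, among them Th, Dbh and Chga, were well above background in the control RNA on all 12 arrays. Of 16 markers of other cell types, 3 were (Col1a1, Pdgfra and Cd68), and 12 were never measured. No gene of both marker lists was counted. Dbh, the enzyme that makes noradrenaline, was at 3.03- and 1.83-fold at 120 min, Th at 2.15 and 1.52, and Cd68 at 1.97 and 1.91, while Pdgfra was at 0.400 and 0.523. In pooled RNA, more RNA per cell and more cells that express a gene cannot be told apart.

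**Figure D4:**
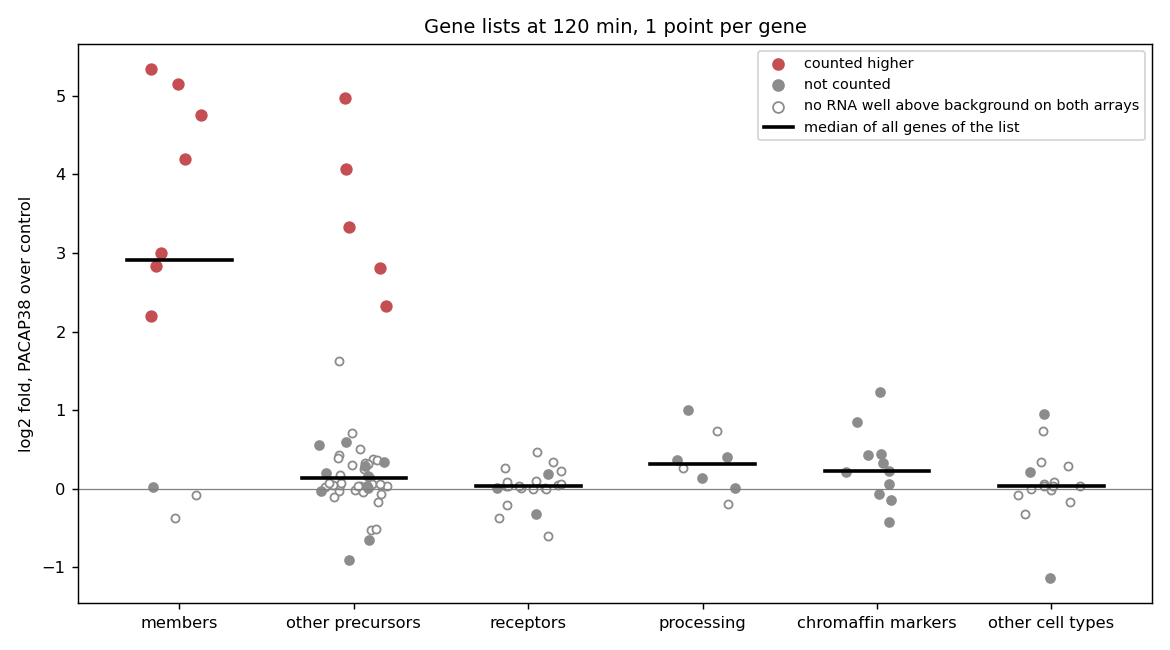
Log2 fold at 120 min (mean of both arrays, brightest probe, 1 point per gene) in the 10 genes described here (members), 47 other precursors, 21 receptor genes, 8 processing genes, 11 chromaffin markers and 16 markers of other cell types. Red points were counted as higher, open points had no RNA well above background on both arrays, and bars are the median of all genes of a list. Counted genes appear in the first and second list only.

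For each counted gene the 3 genes with the most similar course were taken from 9964 named genes of the fit by the Euclidean distance between their 6 log2 folds. For Pnoc they were Calcb (distance 0.62), Il10ra (0.81) and Vip (0.92). For Nts they were Pdyn (1.36), Emp1 (1.65) and Mmp10 (1.71), and for Pdyn Mmp10 (0.98), Emp1 (1.21) and Crisp3 (1.24). Tac1 was nearest to Pkp2 (0.60), Errfi1 (0.70) and Ankrd1 (0.73), and Adcyap1 to Ier3 (0.58), Cnksr3 (0.60) and Slc4a11 (0.71). Gal was nearest to Lef1 (0.35), Txndc5 (0.36) and Aloxe3 (0.39), and Npy to Prrg4 (0.25), Tmem182 (0.35) and Scin (0.42). At time points where both RNAs of a gene were dim, the distance rests on ratios of background. Where only the control was dim, as for Pdyn and Mmp10 at 120 min, the distance took the fold and not its bound. For Pdyn these were 40.4 and at least 11.8.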

How the data were processed

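Signals were extracted by the authors with Feature Extraction of Agilent (version 12.0.3.1 per the file headers, 11.0.1.1 per the submitters' processing notes). The deposited Cy3 and Cy5 intensity values had background subtraction, detrending and LOWESS normalization of the dyes, with mean and background signals, a log10 ratio, a p-value and flags for each spot, and the deposited table holds the log10 ratio of Cy5 to Cy3. The spot p-value is the authors' software's estimate for a single array. The outlier score flags and control spots of the deposited files were used to leave out spots.
Log2 ratios were turned to PACAP38 over control, spots of a probe averaged and the median of their p-values taken. An RNA counted as well above background when over 0.5 of its spots carried the flag. Levels and bounds used limma's Aquantile scaling. A bound set the bright RNA's mean against, per array, the higher of the dim signal and the lowest signal of any probe well above background there. Genes named outside the 10 were those counted in a fixed list (up to 8) and the 3 nearest in course. Others were those whose brightest probe was measured throughout or cited for a probe that disagreed, and the dim convertases Pcsk1 and Pcsk2. Slopes were fitted with limma 3.58.1 in R 4.3.3 with Benjamini-Hochberg adjustment and tested on simulated data, and tables and plots were made with Python 3.11.15 (matplotlib 3.10.9, numpy 2.4.6, pandas 2.3.3). Per array, 39.8 to 48.9% of spots were well above background for PACAP38 and 38.4 to 49.6% for control, and 0 were saturated. The number of arrays limits the precision. One marker gene of the lists is not reported here. The genes and lists were chosen with earlier results of these data known. Alternatives were single arrays, normexp with loess or median centring, the deposited table, other probes, other limits, other time scales, slide as a block and other scalings.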

Additional observations from a re-analysis of the deposited data

Results flagged for a closer look

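The control level of Npy at 120 min was 4.15 (log2 intensity, mean of 2 arrays), apart from the other 5 control pools, of which the nearest was at 3.05. The gap was 0.718 of the whole range, above the limit of 0.625 for 6 values. Chance alone marks about 1 in 20 such groups, and 10 were looked at. The fold of Npy at 120 min is taken against this pool.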

How the results depend on the processing

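The count of higher genes at 120 min was 7 with the deposited table of ratios, either array alone, the median over all probes of a gene, a 1.5-fold limit, no p-value limit and only probes well above background. With normexp it fell to 2 with loess and to 1 with median centring at 120 min, and from 2 to 0 with both at 60 min. Only probes well above background gave 1 gene at 60 min instead of 2. With 1 array left out, the count ranged from 0 to 1 for higher genes at 10 min (Nts) and for lower genes at 10 and 120 min (Cartpt), against 0 with both. Slopes of the fold past the threshold numbered 7 in minutes and 1 for late against early time points, those of the PACAP38 level 7 in minutes, 1 with 75th percentile scaling and 0 to 1 with a time point left out, against 0 each. Of the 8 genes in these fits 6 entered through a late PACAP38 signal alone, so these counts support nothing about their course. With only probes well above background at all 6 time points Gal and Cck remained and neither passed. The slope of Cck turned to -0.022 with normexp and median centring, and with 1 time point left out it ranged from -0.0063 (without 120 min) to 0.060 (without 10 min), with -0.0034 without 5 min. An added setting, chosen after seeing the data, limma's loess before scaling, left the counts for levels at 0. Low signal over background limits most folds to bounds. The cause of these shifts was not tested. No paired analysis was possible because replicate numbers mark the dye orientation of the same RNA pools.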
